A study of Mus musculus with 12 samples.

Results

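A skipped (cassette) exon is an internal exon that some transcripts of a gene contain and others leave out. The exons described here are longer than 51 bases and have a length that is a multiple of 3, so that leaving one out does not by itself shift the reading frame of the exons that follow. They were chosen by the layout of the deposited event table and not by any level: each exon had to be listed both as contained and as left out, and its length had to fit. Of 10709 such paired skipped exons, 4051 met the length rule, 5175 were over 51 bases and frame-shifting, and 1483 were 51 bases or shorter. The shortest member was 54 bases long, the median was 111 and the longest 7674, and the longest multiple of 3 left outside was 51 bases. The members lie in 3049 genes.

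The samples were 12 libraries of poly(A)-selected RNA from mouse colon, 4 from each of 3 groups. The FGF1 group is labelled with fibroblast growth factor 1, a secreted growth factor, the DSS group with dextran sulfate sodium, a polymer that injures the colon lining, and the control group as control. The labels give no dose, time, strain, age or sex, and leave unsaid if DSS was also given to the FGF1 mice. They do not say that the libraries came from separate animals, so the p-values below measure only spread between these libraries. The spread used for each exon also borrows from that of the other exons. For a steady exon the SE can therefore be wider than its own values give. For each exon, inclusion is the summed FPKM (sequenced fragments scaled for transcript length and library size) of the listed transcripts that contain it, divided by that sum plus the FPKM of the transcripts that lack it, in percent.

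In the textbook account, a cassette exon is kept or skipped according to its splice sites and to RNA-binding proteins such as SR proteins, hnRNPs, ESRP and MBNL factors, whose levels differ between cell types. A frame-keeping exon adds or removes a stretch of protein and leaves both ends of the protein as they were, whereas a frame-shifting exon often brings in an early stop codon that exposes the transcript to nonsense-mediated decay. Epithelial cells, smooth muscle, fibroblasts and neurons each use characteristic sets of such exons, so that a tissue such as colon yields a blend of them.

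The sequences of some exons described below are shown here, read from the GENCODE vM21 transcripts of GRCm38. None of them was called for inclusion, and the Srp19 exon, the only member called, is not among them. Capitals mark the skipped exon, and the 12 lower-case bases on each side are the ends of the neighbouring exons in the same transcript, all of them coding. Hsph1, Adgrl2, Nab2 and Pgm3 had the smallest p-values of the uncalled exons higher in DSS, Numb and Fn1 are textbook cassette exons of epithelium and matrix, Hnrnpa2b1 was among the most abundant and steady, and Rab3ip separated the FGF1 and DSS libraries.
Hsph1: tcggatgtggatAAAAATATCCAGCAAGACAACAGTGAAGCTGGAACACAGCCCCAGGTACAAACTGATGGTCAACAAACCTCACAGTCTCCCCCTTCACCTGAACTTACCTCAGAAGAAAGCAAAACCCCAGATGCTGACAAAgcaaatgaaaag
Adgrl2: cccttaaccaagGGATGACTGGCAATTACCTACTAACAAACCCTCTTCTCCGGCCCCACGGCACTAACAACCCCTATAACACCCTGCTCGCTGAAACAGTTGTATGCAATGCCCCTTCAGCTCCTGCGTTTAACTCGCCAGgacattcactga
Nab2: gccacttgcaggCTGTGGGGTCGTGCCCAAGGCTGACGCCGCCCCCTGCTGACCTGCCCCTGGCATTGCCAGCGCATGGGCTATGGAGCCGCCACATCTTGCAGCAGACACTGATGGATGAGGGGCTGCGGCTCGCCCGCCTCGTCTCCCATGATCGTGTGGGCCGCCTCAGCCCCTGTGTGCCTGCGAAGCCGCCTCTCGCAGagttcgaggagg
Pgm3: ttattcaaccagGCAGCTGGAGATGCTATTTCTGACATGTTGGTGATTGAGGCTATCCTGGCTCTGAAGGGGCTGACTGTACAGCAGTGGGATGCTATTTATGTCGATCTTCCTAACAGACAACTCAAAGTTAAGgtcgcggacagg
Numb: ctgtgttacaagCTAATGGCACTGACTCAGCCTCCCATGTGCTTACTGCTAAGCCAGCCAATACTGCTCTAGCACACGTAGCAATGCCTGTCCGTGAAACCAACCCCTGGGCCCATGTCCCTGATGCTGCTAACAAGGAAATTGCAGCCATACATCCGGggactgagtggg
Hnrnpa2b1: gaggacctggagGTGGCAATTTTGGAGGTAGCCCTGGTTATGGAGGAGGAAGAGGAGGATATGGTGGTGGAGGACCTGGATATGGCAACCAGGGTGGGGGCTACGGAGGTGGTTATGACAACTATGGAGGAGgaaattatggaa
Rab3ip: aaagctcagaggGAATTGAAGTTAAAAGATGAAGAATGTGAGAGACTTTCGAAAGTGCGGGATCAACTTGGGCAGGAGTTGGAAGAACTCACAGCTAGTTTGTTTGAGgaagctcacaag
Fn1: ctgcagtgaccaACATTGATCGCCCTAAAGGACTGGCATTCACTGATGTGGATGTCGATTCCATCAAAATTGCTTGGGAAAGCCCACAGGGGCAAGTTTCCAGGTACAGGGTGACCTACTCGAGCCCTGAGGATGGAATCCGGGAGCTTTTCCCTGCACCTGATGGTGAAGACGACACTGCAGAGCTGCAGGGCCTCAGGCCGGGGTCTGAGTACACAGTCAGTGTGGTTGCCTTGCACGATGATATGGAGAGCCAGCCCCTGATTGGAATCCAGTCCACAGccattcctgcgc

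Of the 4051 members, 2574 (63.5%) lay wholly in coding sequence, 580 spanned coding and untranslated sequence, 443 lay in untranslated regions (UTRs), 400 lay in transcripts annotated as noncoding and 54 had no matching annotated exon. Among the coding members, 3 of 2574 held a stop codon in the reading frame, and the exon-lacking form had a transcript annotated as protein-coding for 2309 (89.7%). For the frame-shifting exons that lay in coding sequence, the exon-lacking form was annotated as protein-coding for 884 of 2355 (37.5%). These shares describe the annotation and not a measurement of the colon libraries.

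A library was used for an exon where both forms together reached 1 FPKM. Between 2884 members (DSS 3) and 3254 (control 3) were measured in a library, of which 30.1% to 34.8% had an inclusion of 95% or more and 28.3% to 32.1% of 5% or less. Measurement in at least 3 libraries of each group was reached by 2774 members and missed by 1277. Of the 2774, 717 had a mean inclusion over 95% and 691 under 5%, and the other 1366, in 1122 genes, were tested. The tested coding members, 991 in number, had a median mean inclusion of 65.2%, against 27.6% for the 146 in UTRs and 24.7% for the 161 that spanned both.

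**Figure D1:**
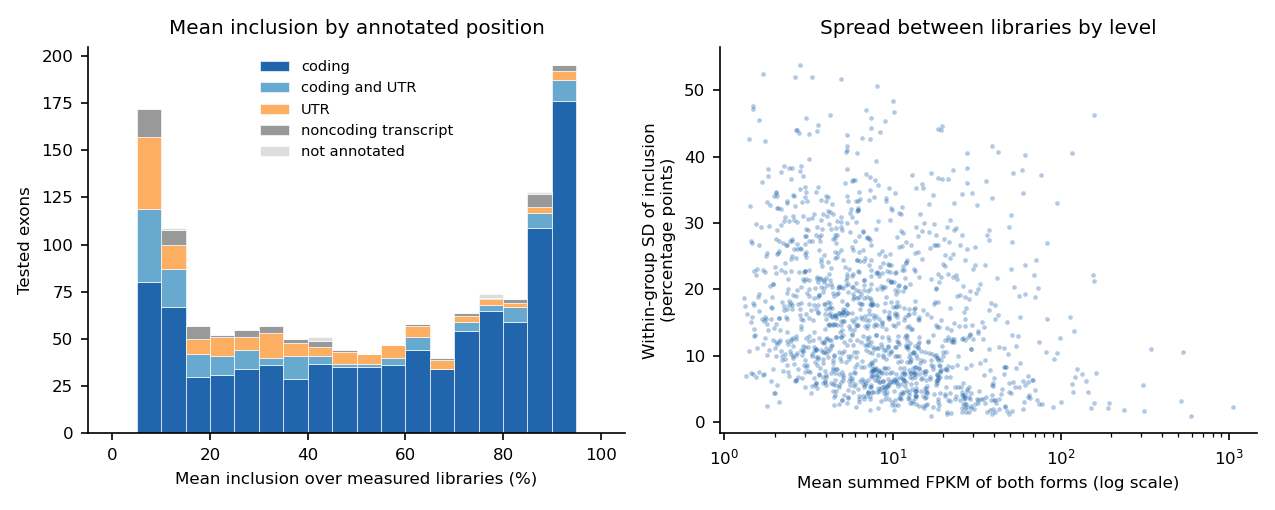
Left, mean inclusion over the measured libraries (%) of the 1366 tested exons in steps of 5 points, coloured by annotated position; right, the within-group SD of inclusion (percentage points, pooled over the 3 groups) against the mean summed FPKM of both forms on a log axis, 1 point per exon. Coding exons make up most of the upper end, and the median SD fell to 8.86 points for the 263 exons at 20 FPKM or more, against 17.5 points for the 385 exons between 2 and 5 FPKM.

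Inclusion varied widely between libraries of a group. The median SD was 9.43 percentage points in FGF1, 9.79 in DSS and 9.82 in control. An SD under 5 points was found for 28.4% of the tested members in FGF1, 28.6% in DSS and 29.1% in control. It was over 25 points for 19.8% in FGF1, 20.9% in DSS and 18.2% in control. Some exons jumped within a group from 5% or less in 1 library to 95% or more in another, 31 of them in FGF1, 47 in DSS and 17 in control. The values are estimates for whole transcripts and not counts of reads across the exon's junctions. For 767 of the 1366 tested members (56.1%), some exon-containing and some exon-lacking transcript had annotated introns that differ at that exon alone. For the others the forms also differ elsewhere. Exons of the same transcripts share their values, as 6 tested members did in full. FPKM hold no read counts, so the counting error behind each value is unknown.

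The cell content of the libraries differed between groups as far as marker genes show it. The summed FPKM of 16 smooth muscle genes was 1605 to 9296 in FGF1, 847.2 to 2761 in DSS and 3488 to 10740 in control libraries. For 10 fibroblast genes the sums were 90.27 to 257.6 in FGF1, 17.28 to 108.5 in DSS and 301.5 to 424.7 in control. For 10 immune genes they were 158.3 to 615 in FGF1, 86.3 to 156.5 in DSS and 937.9 to 2554 in control. Igha (684 to 2020 FPKM) and Jchain made up most of these control sums. Csf1r, C1qa, C1qb, C1qc and Cd74 were also lower in every DSS library than in every control. Ptprc (0.113 to 0.996 FPKM in DSS, 0.0319 to 2.98 in control) and Cd3e (0.164 to 0.469 and 0.206 to 1.02) overlapped at low levels. Cd79a was higher in DSS 1 and DSS 3 (3.19 and 2.42) than in any control (0.507 to 1.58). For 6 endothelial genes the sums were 15.92 to 30.76 in FGF1, 5.529 to 26.16 in DSS and 42.26 to 54.56 in control. The sums of 12 epithelial genes overlapped, at 9421 to 16160 in FGF1, 12560 to 19610 in DSS and 8032 to 16570 in control. Car1 alone ranged from 1610 FPKM in control 3 to 11200 in DSS 2. Lgals4 (1770 to 2190 FPKM in DSS, 1280 to 1530 in control) and Cdx2 (147 to 195 and 116 to 139) were higher in every DSS library than in every control. The other genes of this list overlapped between DSS and control. No gene of these lists or of the 8 enteric neuron and glia genes was at 0 in any library. In bulk tissue, fewer cells of a type and less RNA per cell cannot be told apart, and the part of cell content in the differences of inclusion below was not tested beyond a fit that has a smooth muscle term.

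DSS over control. With limma on inclusion over 3390 skipped exons of any length, of which 1 (0.0295%) was called at an adjusted p under 0.05, 1 of the 1366 members was called, the Srp19 exon, and it was higher in DSS. At an unadjusted p under 0.05, 110 members passed (8.05%; 7.26% of all tested exons), 71 higher (4.04% of all tested exons were) and 39 lower in DSS (3.22%). The groups did not overlap for 71 members, or 5.20%, against 4.81% of all tested exons. Of these members 47 were higher in DSS (2.77% of all tested exons) and 24 lower (2.04%). On both counts, taken in either direction, the members stood near the whole of the tested exons. By direction at an unadjusted p under 0.05, the members were 71 higher and 39 lower. The frame-shifting exons were 48 higher and 46 lower, and the short exons 18 higher and 24 lower. This tilt was not tested. The median difference was 0.45 percentage points over the members and 0.40 over all tested exons, and the median absolute difference was 6.91 points against 6.49.

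**Figure D2:**
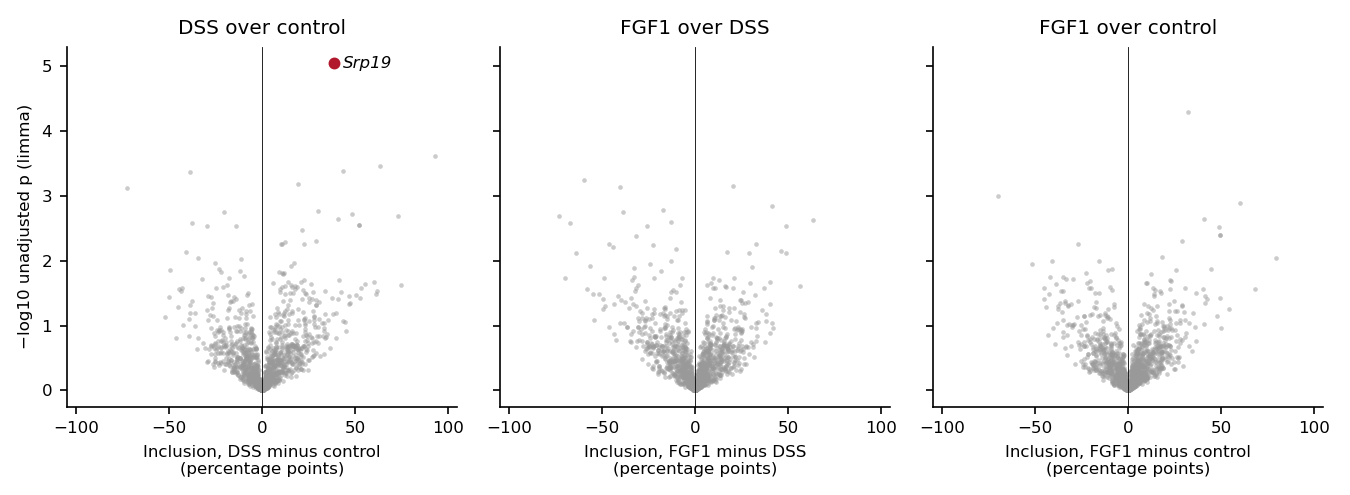
Difference in inclusion (percentage points, first-named minus second-named group) against the −log10 unadjusted p from limma for the 1366 tested exons, 1 point per exon, in DSS over control, FGF1 over DSS and FGF1 over control. The red point is the Srp19 exon (adjusted p = 0.0304), the only 1 of them called, and differences of over 50 points stand uncalled on both sides.

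Srp19 encodes a protein of the signal recognition particle, which brings ribosomes that make secreted and membrane proteins to the endoplasmic reticulum. Its 72-base coding exon (GRCm38, chr18:34334293-34334364, plus strand) had an inclusion of 100, 100, 89.3 and 84.0% in FGF1, 100% in each of the 4 DSS libraries and 68.8, 65.1, 49.5 and 61.0% in control. The DSS and control libraries did not overlap, nor did FGF1 and control. The difference of DSS minus control was 38.9 ± 5.05 percentage points (SE; 95% interval 27.8 to 50.0; limma adjusted p = 0.0304). The exon-lacking transcript was listed at 0 FPKM in every DSS library and at 6.57, 6.63, 14.2 and 8.48 FPKM in control. The exon-containing transcripts were at 19.4, 8.21, 18 and 17.3 FPKM in DSS and 14.5, 12.4, 13.9 and 13.3 in control. The exon could not be fitted on the event rows as deposited, which hold no value where a form is listed at 0, as in DSS. Its values of 100% thus rest on the use of each transcript's own FPKM. The call was kept in 16 of the 26 alternatives in which the exon could be fitted, with adjusted p-values of 0.00909 to 0.487 over them. It was lost without DSS 1 (0.0513), DSS 3 (0.0773), DSS 4 (0.0917) or FGF1 3 (0.0652), with a smooth muscle term in the model (difference 35.9 points, adjusted p = 0.487), and on a log ratio of the forms with a pseudocount of 1 (0.160) or 0.1 (0.218).

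The next 4 exons higher in DSS were not called. Hsph1 encodes a large heat shock chaperone of the HSP110 family that helps HSP70 release its nucleotide, and its exon-lacking form is known as Hsp105β. The 132-base exon (chr5:149623465-149623596, minus strand) had an inclusion of 100, 6.09, 5.56 and 18.9% in FGF1, 100% in each of the 4 DSS libraries and 6.53, 6.95, 6.81 and 7.77% in control. By these transcript estimates inclusion was thus 100% in DSS and FGF1 1 and 5.56 to 7.77% in the 4 controls, FGF1 2 and FGF1 3.

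The exon-lacking Hsph1 transcript was listed at 0 FPKM in the 4 DSS libraries and at 36.8, 64.8, 44.8 and 31.9 FPKM in control. The exon-containing transcripts stood at 7.47, 22, 10.3 and 16.0 FPKM in DSS and at 2.57, 4.83, 3.27 and 2.69 in control, so that the form with the exon was higher and the form without it lower in DSS. Inclusion differed by 93.0 ± 17.5 points in DSS minus control (95% interval 54.5 to 131.5; adjusted p = 0.142). All 3 groups share the estimate of the spread, and FGF1 1 alone of its group stood at 100%: without FGF1 1 the adjusted p was 4.85e-05, and in a fit of the DSS and control libraries alone it was 0.00182. For Hsph1, and below for Banp, Ccnl2, Ube2v2, Cnot7, Ercc8 and Fn1, the omission quoted is that of the library that stood apart. A smaller p follows in part from that choice and is no added support. The summed level of both forms was lower in DSS, at 13.9 ± 6.44 FPKM against 47.9 ± 15.5 in control (SD, n = 4 each; log2 difference of FPKM + 1 -1.76 ± 0.31, limma adjusted p = 0.0296).

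Adgrl2, an adhesion G protein-coupled receptor of the latrophilin family, carries a 129-base coding exon (chr3:148821280-148821408, minus strand). Its inclusion was 34.9, 4.65, 43.3 and 39.9% in FGF1, 99.0, 84.4, 77.5 and 99.7% in DSS and 38.1, 11.9, 52.4 and 4.13% in control. Every DSS library stood above every library of the other 2 groups. The difference was 63.5 ± 12.5 points in DSS minus control (95% interval 36.0 to 90.9; limma adjusted p = 0.142) and -59.5 ± 12.5 points in FGF1 minus DSS (adjusted p = 0.216), at a mean of 3.39 FPKM for both forms.

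Nab2, a corepressor of the EGR transcription factors, has a 192-base exon (chr10:127662731-127662922, minus strand). Inclusion was 68.3, 53.7, 66.1 and 50.0% in FGF1, 100% in the 3 measured DSS libraries and 41.0, 56.3, 53.5 and 74.6% in control. DSS 4 was under 1 FPKM and left out. The difference was 43.6 ± 8.45 points in DSS minus control (limma adjusted p = 0.142) and -40.5 ± 8.45 points in FGF1 minus DSS (adjusted p = 0.222; 0.0447 on the log ratio with a pseudocount of 0.1), at a mean of 2.31 FPKM.

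Pgm3, a mutase in the making of UDP-N-acetylglucosamine, the sugar donor of mucin glycans among others, has a 123-base exon (chr9:86557503-86557625, minus strand). Its inclusion was 80.7, 74.2, 81.7 and 81.8% in FGF1, 100, 100, 86.1 and 100% in DSS and 80.2, 78.4, 73.9 and 76.7% in control. The DSS libraries were the highest 4, and FGF1 and control overlapped. The difference was 19.2 ± 4.10 points in DSS minus control (95% interval 10.2 to 28.2; limma adjusted p = 0.200), and the summed level hardly differed (log2 difference -0.06 ± 0.15).

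**Figure D3:**
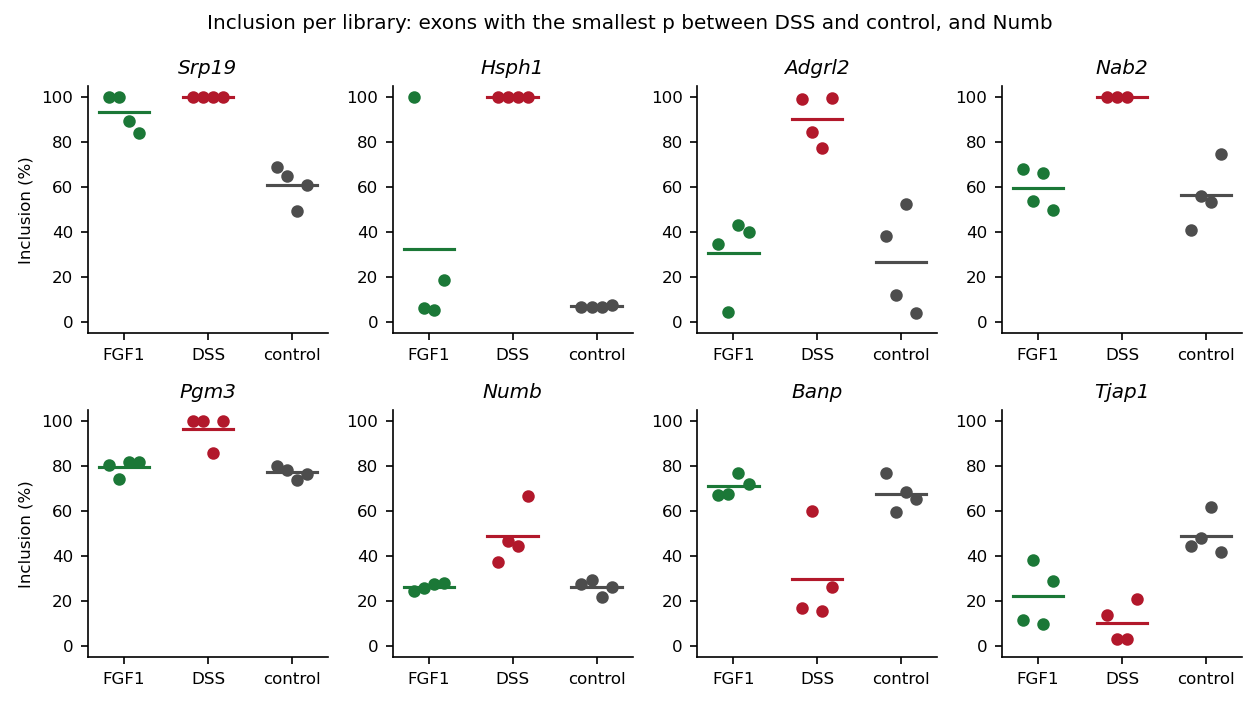
Inclusion (%) in each library, 1 point per library with a bar at the group mean, for Srp19, Hsph1, Adgrl2, Nab2, Pgm3, Numb, Banp and Tjap1, with FGF1, DSS and control from left to right. DSS stands at 100% for Srp19 and Hsph1, and 1 FGF1 library joins it for Hsph1.

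The 5 exons lower in DSS with the smallest p-values were not called either. Tjap1, named for its link to tight junctions, has a 129-base UTR exon whose inclusion was 11.8, 38.5, 9.91 and 28.8% in FGF1, 13.9, 3.05, 3.09 and 21.0% in DSS and 44.5, 48.2, 61.8 and 41.8% in control. All 8 FGF1 and DSS libraries were below the 4 controls, and the difference was -38.8 ± 7.83 points in DSS minus control (limma adjusted p = 0.142). Banp, a nuclear DNA-binding protein, has a 117-base exon included at 67.1, 67.8, 77.1 and 72.0% in FGF1, 17.1, 60.1, 15.5 and 26.5% in DSS and 76.9, 59.7, 68.5 and 65.4% in control. DSS 2 stood with the controls. The difference of -37.8 ± 9.77 points in DSS minus control had an adjusted p of 0.331, and of 0.0444 without DSS 2 (-47.9 points).

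Bbx, an HMG-box transcription factor, had 97.4, 100 and 24.5% inclusion of a 90-base exon in the 3 measured control libraries, against at most 13.4% in every FGF1 and 4.81% in every DSS library, at a mean of 1.77 FPKM (-72.8 ± 15.3 points in DSS minus control, limma adjusted p = 0.213). Rhbdd2, of the rhomboid family, stood at 3.86, 10.5, 0 and 0.192% in DSS and 21.1, 19.3, 21.0 and 34.7% in control (-20.4 ± 4.98 points, adjusted p = 0.325). For Aph1b, a subunit of the γ-secretase that cleaves Notch, the mean was 62.1 ± 12.5% in DSS and 91.7 ± 11.3% in control (SD, n = 4 each), with DSS 4 (80.4%) above control 3 (76.1%) and an adjusted p of 0.331 by limma.

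FGF1 over DSS. No member was called by limma, while 4 of all 3390 tested exons were (0.118%). At an unadjusted p under 0.05, 82 members passed (6.0%; 5.58% of all tested exons). They were 36 higher (2.65% of all tested exons) and 46 lower in FGF1 (2.92%). The groups did not overlap for 58 members (4.25%, against 3.98% of all tested exons), 26 higher (1.89%) and 32 lower in FGF1 (2.09%). The median difference was 0.02 points over the members and -0.06 over all tested exons. DSS libraries enter this comparison and the one with control, so an exon that stands out in DSS alone appears in both, as Adgrl2, Nab2, Pgm3 and Banp did.

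Dnajb2, a J-domain partner of HSP70, had an inclusion of its 156-base exon, which holds coding and untranslated bases, of 22.1, 20, 26.6 and 17.5% in FGF1, 1.16, 0, 0 and 3.80% in DSS and 2.87, 13.4, 20.5 and 0% in control. The FGF1 libraries were all above DSS, and control spanned both. The difference was 20.3 ± 4.37 points in FGF1 minus DSS (95% interval 10.7 to 29.9; limma adjusted p = 0.222). The Banp exon was 41.2 ± 9.77 points higher in FGF1 than in DSS (adjusted p = 0.316; 0.0260 without DSS 2). Ip6k2, an inositol hexakisphosphate kinase, was at 81.0 to 100% in the 4 FGF1 libraries and at 0, 61.4 and 34.1% in the 3 measured DSS libraries (adjusted p = 0.376), at only 1.5 FPKM on average.

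Ccnl2 encodes cyclin L2, which resides in splicing speckles. Its 126-base exon, which holds coding and untranslated bases, was at 98.5, 98.1, 0 and 96.5% in DSS and at 0% in all 4 FGF1 and all 4 control libraries. The listed transcripts were abundant. The exon-containing transcript was at 69.0, 52.1 and 64.3 FPKM in DSS 1, 2 and 4. It was listed at 0 in the other 9 libraries, where the exon-lacking transcript stood at 12 FPKM (DSS 3) to 40.4 FPKM (control 3). The difference of -73.3 ± 18.3 points in FGF1 minus DSS was not called (limma adjusted p = 0.349), and without DSS 3 it was -97.7 points with an adjusted p of 1.09e-06. Without DSS 1, DSS 2 or DSS 4 the limma adjusted p was 0.533, 0.595 and 0.504. In a fit of the FGF1 and DSS libraries alone it was 0.798. The 2 transcripts also differ elsewhere in the gene.

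Ptges3l, related to the prostaglandin E synthase 3 cochaperone, had an inclusion of a 54-base exon of 34.9, 29.3, 56.1 and 40.4% in FGF1 and 94.6, 65.1, 77.6 and 77.2% in DSS (-38.4 ± 9.40 points, limma adjusted p = 0.316), with control between 40.7 and 66.8%. Rab3ip, an exchange factor that activates RAB8 on the way of vesicles to the apical membrane, was singled out after its values were seen. Its 96-base exon (chr10:116928189-116928284, minus strand) was at 77.8, 77.0, 82.8 and 80.7% in FGF1, 95.2, 94.5, 90.4 and 90.0% in DSS and 87.2, 90.5, 85.1 and 80.2% in control. FGF1 and DSS did not overlap, and control overlapped both (-13.0 ± 3.34 points in FGF1 minus DSS, 95% interval -20.3 to -5.64, adjusted p = 0.376).

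FGF1 over control. No member was called by limma, and 1 of all 3390 tested exons was (0.0295%). At an unadjusted p under 0.05, 71 members passed (5.20%; 4.45% of all tested exons), 36 higher (2.60%) and 35 lower in FGF1 (1.86%). The groups did not overlap for 37 members (2.71%, against 3.01% of all tested exons), 22 higher (1.95%) and 15 lower in FGF1 (1.06%). The Srp19 exon had the smallest p-value, with a difference of 32.2 ± 5.05 points in FGF1 minus control (95% interval 21.1 to 43.3; adjusted p = 0.0863). It passed without control 1 (0.0363), control 3 (0.0458) or FGF1 4 (0.0400).

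Ube2v2, a partner of the UBC13 enzyme that builds lysine-linked ubiquitin chains, had an inclusion of its 126-base exon of 92.5, 100, 21.8 and 71.0% in FGF1, 28.1, 14.5, 27.5 and 29.8% in DSS and 9.75, 13.5, 10.6 and 11.3% in control. FGF1 3 stood with the DSS libraries. The difference of 60.0 ± 14.0 points in FGF1 minus control had a limma adjusted p of 0.483, and of 0.00431 without FGF1 3. Cnot7, a deadenylase of the CCR4-NOT complex, included its 111-base exon at 100% in all 4 FGF1 and all 4 DSS libraries and in control 4, against 48.3, 43.5 and 44.5% in the other controls (40.9 ± 10.4 points in FGF1 minus control, adjusted p = 0.713; 2.30e-05 without control 4). Ercc8, a factor of transcription-coupled DNA repair, included a 102-base UTR exon at 52.1, 74.9, 70.6 and 0% in FGF1 and at no more than 0.845% in any DSS and 1.01% in any control library (adjusted p = 0.713 against control; 5.73e-04 without FGF1 4).

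A second Bbx exon, of 81 bases, stood at 86.6 to 99.7% in FGF1 and 2.58, 75.2, 33.6 and 75.5% in control (limma adjusted p = 0.713), and another exon of the gene shared its values in full. The Tjap1 UTR exon was 26.8 ± 7.83 points lower in FGF1 than in control (adjusted p = 0.759). Prpsap2, a regulatory partner of phosphoribosyl pyrophosphate synthetase, had 44.0, 87.2, 6.74 and 53.5% inclusion of a UTR exon in FGF1 against 82.8 to 100% in control. The 66-base exon of Anxa7, a membrane-binding annexin whose form with this cassette is known from muscle and brain, was at 9.20, 0, 0 and 20.4% in FGF1 and 25.1, 19.8, 24.2 and 22.8% in control (adjusted p = 0.941). Golgb1, the Golgi tether giantin, was at 0, 0.140, 30.9 and 30.5% in FGF1 and 92.2, 84.6, 15.6 and 74.6% in control (adjusted p = 0.992).

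Cdk2, the cyclin-dependent kinase of S phase entry, was singled out after its values were seen. It included a 144-base exon at 79.7, 74.1, 81.1 and 76.8% in FGF1, 77.6, 72.1, 60.6 and 75.7% in DSS and 58.3, 69.2, 56.4 and 54.5% in control. The 4 FGF1 libraries were above the 4 controls, with a difference of 18.3 ± 5.79 points (95% interval 5.60 to 31.1; limma adjusted p = 0.891).

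**Figure D4:**
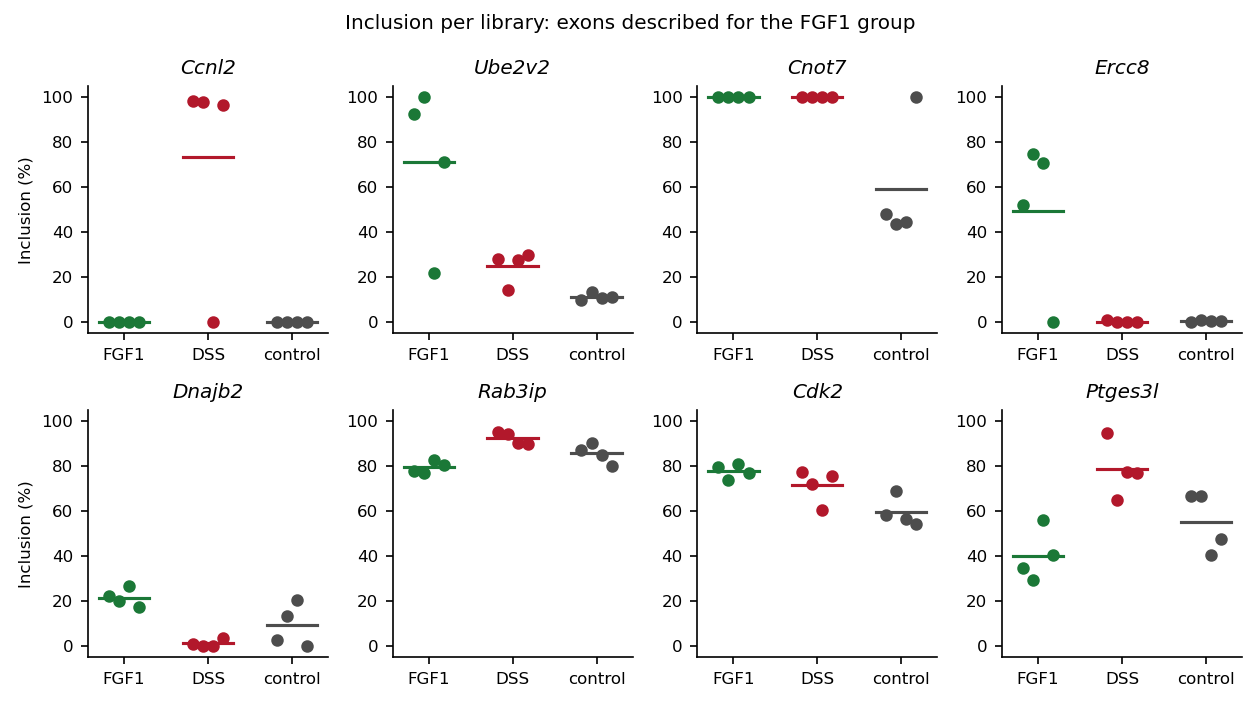
Inclusion (%) in each library, 1 point per library with a bar at the group mean, for Ccnl2, Ube2v2, Cnot7, Ercc8, Dnajb2, Rab3ip, Cdk2 and Ptges3l, with FGF1, DSS and control from left to right. In Ccnl2, Ube2v2, Cnot7 and Ercc8 a single library of a group stands with the other groups, in Rab3ip the FGF1 libraries all lie below the DSS libraries, and in Cdk2 all above the controls.

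No member in 8 lists of genes was called for inclusion in any comparison by limma, in a background of 0.0295% to 0.118% of all tested exons, and the counts below are at an unadjusted p under 0.05. The members of these lists with the smallest p-values in DSS over control are given with their values. The list of genes known for epithelial splicing programmes had 34 tested members in 20 genes, of which 3 passed in DSS over control, all higher (8.82%; 7.26% of all tested exons passed, 4.04% higher). The median difference was 3.71 points (0.40 over all tested exons). Numb, an endocytic adaptor that restrains Notch, has a 147-base exon (chr12:83797197-83797343, minus strand) that lengthens its proline-rich region. Its inclusion was 24.7, 26.0, 27.5 and 27.9% in FGF1, 37.6, 46.8, 44.5 and 66.9% in DSS and 27.5, 29.4, 21.9 and 26.4% in control. Every DSS library was above every other library, and FGF1 and control overlapped. The difference was 22.7 ± 6.59 points in DSS minus control (95% interval 8.18 to 37.2; adjusted p = 0.404) and -22.5 ± 6.59 points in FGF1 minus DSS (adjusted p = 0.512).

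Kif13a, a kinesin of endosome transport, had 91.3, 91.6, 84.2 and 87.9% inclusion in FGF1, 87.5, 90.7, 92.9 and 93.6% in DSS and 85.6, 85.5, 72.3 and 77.3% in control (11 ± 3.83 points in DSS minus control, limma adjusted p = 0.610). Fgfr2, a receptor for FGF1 and other FGFs, included a 267-base exon at 66.4, 68.0, 100 and 61.2% in FGF1, 100, 100 and 62.1% in the 3 measured DSS libraries and 62.2, 66.7, 36.6 and 67.2% in control, at 1.73 FPKM on average (29.2 ± 12.9 points in DSS minus control, adjusted p = 0.676).

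The muscle and stroma splicing list had 26 tested members in 12 genes, of which 3 passed in DSS over control, all lower (11.5%; 7.26% of all tested exons passed, 3.22% lower). The median difference was 0.94 points. Lrrfip1 and Ppp1r12a were among them. Lrrfip1, a regulator of innate signalling, was at 10, 28.1, 8.98 and 8.16% in DSS and 32.5, 26.6, 35.8 and 31.2% in control. Ppp1r12a, the targeting subunit of myosin phosphatase, was at 19.9, 29.0, 52.7 and 54.4% in FGF1, 53.2, 48.0, 14.3 and 14.1% in DSS and 47.7, 59.5, 74.3 and 63.8% in control. The smooth muscle scores of these libraries (mean log2(FPKM + 1) of the list) were 7.15, 6.80, 8.17 and 5.71 in FGF1, 6.50, 6.40, 5.63 and 4.74 in DSS and 6.89, 6.90, 8.53 and 8.08 in control. DSS 3 and DSS 4 were low on both, FGF1 1 and FGF1 2 were low for the exon alone, and FGF1 4 was low for the score alone. The relation of this exon to the score was not tested beyond the fit that has a smooth muscle term.

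The matrix and adhesion list had 10 tested members in 7 genes, of which 3 passed in DSS over control, 2 higher and 1 lower (7.26% of all tested exons passed, 4.04% higher and 3.22% lower; median of the list -8.12 points). Postn, a matrix protein of fibroblasts, included an 81-base exon at 9.49, 8.19, 7.73 and 12.9% in DSS and 2.55, 3.08, 3.10 and 6.01% in control (5.89 ± 2.21 points, limma adjusted p = 0.651), while its summed level was lower (below). Tnc, the matrix protein tenascin C, included a 273-base exon at 98.5 to 100% in DSS, and at 98.4, 0.423, 0.318 and 96.0% in control. Cd47, the receptor that signals to macrophages not to engulf a cell, stood at 15.5, 16.8, 19.7 and 20.2% in DSS and 37.5, 51.9, 25.5 and 22.7% in control (-16.4 ± 7.14 points, adjusted p = 0.664).

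Fn1, fibronectin, was added to these after its values were seen, because its 270-base exon (chr1:71603660-71603929, minus strand) is the EDA exon of cellular fibronectin, a textbook case of regulated splicing. Inclusion was 5.00, 8.86, 12.4 and 4.80% in FGF1, 52.4, 71.0 and 91.3% in the 3 measured DSS libraries and 7.41, 93.3, 14.6 and 11.3% in control. FGF1 and DSS did not overlap, and control 2 alone of the controls stood with DSS. The exon-containing forms were at 1.87, 3.06, 11.5 and 0.991 FPKM in FGF1, 5.12, 4.48, 4.59 and 0.890 in DSS and 1.75, 12.7, 11.5 and 5.21 in control. The exon-lacking forms were at 35.6, 31.4, 81.2 and 19.6 FPKM in FGF1, 4.65, 1.83, 0.438 and 0.0326 in DSS and 21.8, 0.913, 67 and 40.9 in control. The difference in inclusion was -63.8 ± 19.1 points in FGF1 minus DSS (limma adjusted p = 0.512; 0.0262 without control 2) and 39.9 ± 19.1 points in DSS minus control (adjusted p = 0.714). The fibroblast marker scores were 3.15, 3.61, 4.53 and 3.85 in FGF1, 3.34, 2.60, 1.86 and 1.39 in DSS and 4.74, 4.68, 5.14 and 4.84 in control, so that DSS 1 scored above FGF1 1 and control 2 stood with the other controls. Their part in the result was not tested.

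The cell junction and cytoskeleton list had 24 tested members in 16 genes, with 1 higher and 1 lower in DSS over control (8.33%; 7.26% of all tested exons; median -0.02 points). Tjp1, the tight junction scaffold ZO-1, has a 240-base exon known as the α domain, included at 76.8, 74.8, 84.6 and 88.6% in DSS and 78.9, 61.9, 59.4 and 65.1% in control (14.9 ± 6.02 points, limma adjusted p = 0.651). Epb41l3, a membrane skeleton protein, averaged 17.3 ± 4.66% in DSS and 43.8 ± 27.8% in control (SD, n = 4 each). For Macf1, which links microtubules to actin, the means were 84.0 ± 12.5% in DSS and 70.4 ± 4.70% in control, with a p that missed 0.05.

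None of 18 tested members in 16 genes of splicing and RNA-binding proteins passed in DSS over control (median -0.51 points), and 1 passed in FGF1 over DSS, Hnrnpk, a poly(C)-binding hnRNP named for that reason after its values were seen. Its 72-base exon was at 43.2, 40.7, 59.1 and 38.5% in FGF1 and 33.1, 29.7, 25.3 and 28.0% in DSS (16.4 ± 6.28 points, limma adjusted p = 0.796). The smallest p-values of the list in DSS over control belonged to Rbm10, a regulator of exon skipping (28.2 ± 13.9% in DSS and 47.0 ± 10.4% in control, SD, n = 4 each). Next came Mbnl1, a regulator of developmental splicing whose 54-base exon bears on its nuclear location, with 85.6 ± 4.31% in DSS and 71.4 ± 12.7% in control. Hnrnpdl, a related hnRNP, had a UTR exon that averaged 65.6 ± 9.49% in DSS and 48.9 ± 24.6% in control (SD, n = 4 each); with a smooth muscle term the difference turned to -3.45 points.

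Of 31 tested members in 20 genes of membrane traffic (median -1.52 points in DSS over control), none passed in DSS over control or in FGF1 over DSS and 1 passed in FGF1 over control. Ktn1, an anchor of kinesin on the endoplasmic reticulum, averaged 79.1 ± 4.92% in DSS and 70.7 ± 3.76% in control (SD, n = 4 each). Sec31a, of the COPII coat, averaged 80.1 ± 5.99% in DSS and 66.2 ± 12.6% in control. Epn2, an endocytic adaptor, was at 0 to 0.0835% in 10 of its 11 measured libraries and at 100% in DSS 3. The goblet cell and mucus list held 1 member, Slc12a8, a transporter-like protein of the intestine. Its 147-base exon was at 65.2, 68.6, 95.6 and 82.1% in DSS and 61.5, 60.6, 52.9 and 50.2% in control, which did not overlap (21.6 ± 9.24 points, limma adjusted p = 0.664).

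None of the 4 tested members of the FGF signalling list passed in any comparison (median 9.98 points in DSS over control and 7.12 in FGF1 over DSS, against 0.40 and -0.06 over all tested exons). This list leaves out Fgfr2, which is counted in the epithelial list. There it was 1 of the 3 members that passed in DSS over control. The adaptor Grb2 averaged 97.1 ± 5.83% in FGF1, 83.8 ± 25.1% in DSS and 97.6 ± 4.80% in control (SD, n = 4 each). The ERK pathway inhibitor Spred2 averaged 93.2 ± 1.92% in FGF1, 92.3 ± 1.56% in DSS and 79.7 ± 30.2% in control, and without control 2 DSS minus control was -2.55 points. The FGF receptor-like protein Fgfrl1 averaged 84.8 ± 20.3% in FGF1, 91.6 ± 6.40% in DSS and 82.5 ± 13.2% in control. Fgf1 itself, here the mouse gene, included a 90-base exon of coding and untranslated bases at 50.1, 73.4, 0 and 0% in FGF1, 0, 0, 44.1 and 0% in DSS and 0.294, 0.227, 0 and 0% in control. In FGF1 over DSS, where 5.58% of all tested exons passed, 2 members of the epithelial list were lower, 1 of the muscle and stroma list higher, 1 of the matrix list lower and 1 of the junction list higher; in FGF1 over control, where 4.45% passed, 1 of the epithelial and 1 of the matrix list were higher and 1 of the membrane traffic list lower.

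The most abundant tested members were steadier. Spint2, an epithelial inhibitor of serine proteases, had the highest summed FPKM and included its 171-base exon at 7.71 to 9.11% in FGF1, 6.99 to 12.4% in DSS and 2.79 to 9.98% in control. Hnrnpa2b1, an hnRNP that binds and transports RNA, included its 120-base exon (chr6:51464428-51464547, minus strand), within the glycine-rich part of the protein, at 50.9, 48.7, 51.4 and 49.7% in FGF1, 44.1, 47.0, 42.8 and 43.1% in DSS and 52.6, 52.5, 50.3 and 49.2% in control. The 4 DSS libraries were below all others, by a small difference of -6.92 ± 5.41 points in DSS minus control (95% interval -18.8 to 4.98; limma adjusted p = 0.809). This SE and interval borrow from the spread of other exons and are wider than these libraries alone would give.

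Hnrnpab, a related hnRNP, stood at 63.7 to 66.4% in FGF1, 57.2 to 65.6% in DSS and 63.3 to 67.4% in control. Cdhr5, a protocadherin of the microvilli, stood at 72.4 to 82.7% in FGF1, 66.9 to 81.7% in DSS and 68.2 to 79.5% in control. The glycolytic enzyme Aldoa, the ribosomal protein Rps19, the ATP synthase subunit Atp5h and the ketosteroid reductase Akr1c13 averaged 5.17, 32.2, 6.34 and 15.4% in FGF1, 7.14, 25.4, 6.72 and 15.3% in DSS and 4.95, 26.4, 7.65 and 14.9% in control. Bsg, a cell surface partner of lactate transporters, and Dmbt1, a secreted mucosal scavenger protein, spread more widely. The Bsg exon ranged from 18.2 to 46.8% in FGF1, 10.5 to 34.5% in DSS and 16.9 to 37.9% in control, and that of Dmbt1 reached 25.5% in FGF1, 31.7% in DSS and 6.11% in control. None of these 10 was called in any comparison.

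**Figure D5:**
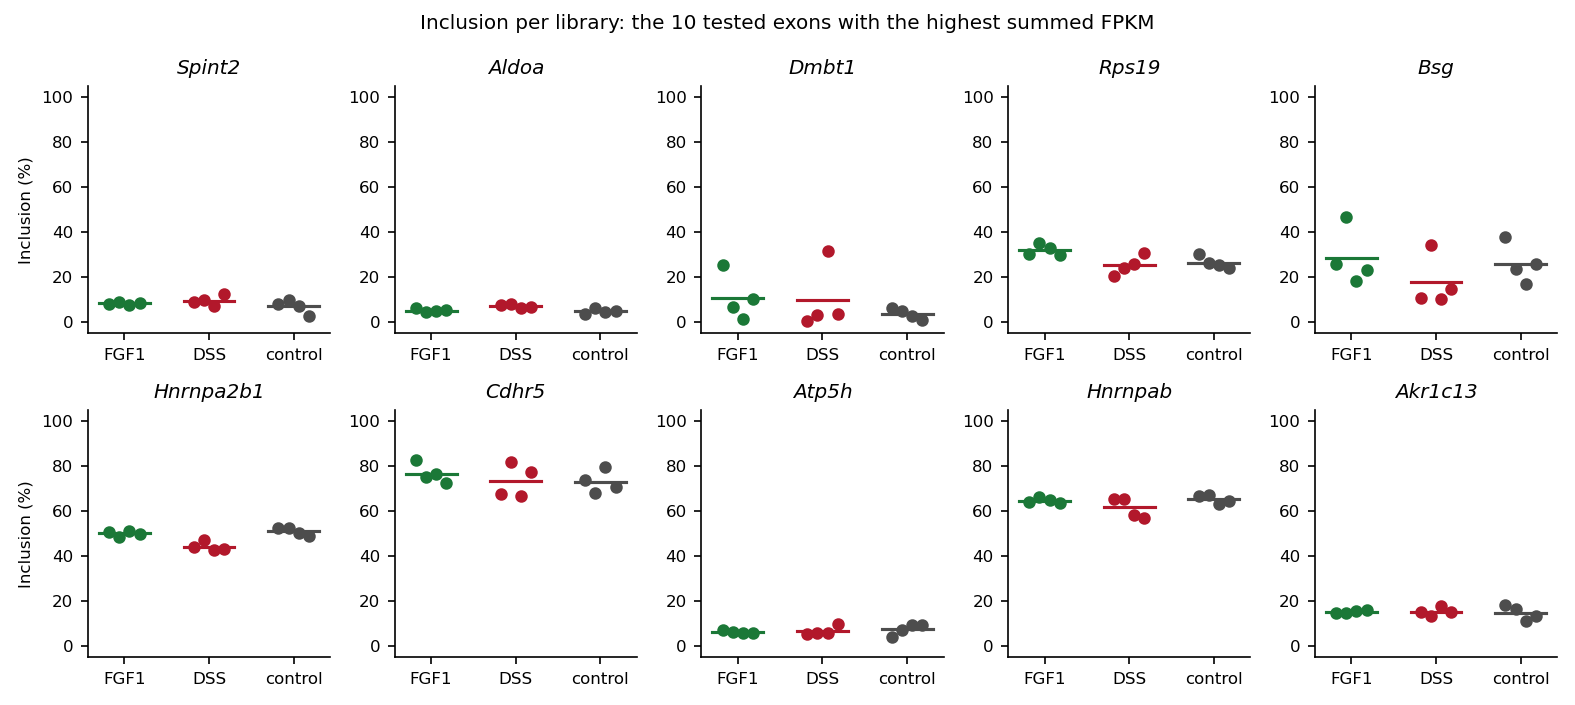
Inclusion (%) in each library, 1 point per library with a bar at the group mean, for the 10 tested exons with the highest mean summed FPKM, with FGF1, DSS and control from left to right. Hnrnpa2b1 lies between 42.8 and 52.6% in all 12 libraries, and Bsg and Dmbt1 have the widest groups.

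A pair of tight exons was named after their values were seen, so it gives no measure of how steady other exons were. Cd74, the invariant chain of MHC class II, included a 192-base exon at 12.9, 13.1, 14.2 and 12.1% in FGF1, 10.7, 9.76, 8.52 and 10.2% in DSS and 14.7, 15.7, 12.4 and 15.7% in control. DSS did not overlap with the other groups, and the difference of -4.80 ± 2.40 points in DSS minus control had a limma adjusted p of 0.724. Here too the SE borrows from other exons and is wider than the libraries of this exon alone would give. Slk, a kinase of the actin cytoskeleton, included its 93-base exon at 9.60, 12, 10.1 and 13.0% in FGF1, 13.8, 12.7, 13.5 and 10.4% in DSS and 10.3, 10.6, 8.23 and 9.26% in control.

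The summed FPKM of both forms was tested beside inclusion. In DSS over control, 9 members in 8 genes were called, all lower, against 26 of all 3390 tested exons (0.767%), 20 of them lower (0.590%). At an unadjusted p under 0.05, 262 members passed (19.2%; 18.4% of all tested exons), 61 of them higher in DSS (5.60% of all tested exons) and 201 lower (12.8%). Efemp1, a fibulin of the extracellular matrix, had 2.94, 2.06, 1.37 and 0.855 FPKM in DSS and 15.5, 13.6, 8.75 and 11.9 in control (log2 difference -2.29 ± 0.25, limma adjusted p = 0.00170), with an inclusion of 76.4% in DSS and 80.8% in control. It was called in all 15 alternatives. The others were 2 exons of Postn (-2.23 ± 0.37 and -2.19 ± 0.38, sharing transcripts), the chemokine Cxcl14 (-2.51 ± 0.42), the procollagen processing enhancer Pcolce (-1.95 ± 0.37), Hsph1, the membrane protein Palm (-1.33 ± 0.24), the guidance cue Sema3f (-1.25 ± 0.21) and Slc12a8 (-0.75 ± 0.14), with adjusted p-values of 0.0210 to 0.0340. The fibroblast markers moved with Efemp1, Postn and Pcolce, and their part was not tested.

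The count of 9 rested on few libraries: it was 2 without control 2, 1 without control 3, 3 without control 4, 37 without DSS 1, 15 without DSS 2, 1 without DSS 3, 3 without DSS 4 and 20 without FGF1 3. Median-of-ratios scaling gave a median log2 difference of 0.07 over all tested exons in DSS over control, against -0.05 with the deposited FPKM, and called 14 members, 5 higher and 9 lower. In FGF1 over DSS, Firre, a noncoding RNA of the X chromosome, was the only member called by level (4 of all tested exons, 0.118%), with 16.7, 16.2, 15 and 18.5 FPKM in FGF1 and 7.44, 7.75, 10 and 5.61 in DSS (1.03 ± 0.17, limma adjusted p = 0.0466). Its call was kept in 3 of 15 alternatives and lost without control 2 or 3, DSS 1, 2 or 4, or any of the 4 FGF1 libraries. In FGF1 over control, none of the members was called by level, 95 had an unadjusted p under 0.05 (6.95%; 7.49% of all tested exons), and none of all 3390 exons was called (0%).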

How the data were processed

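The authors deposited, per library and for the whole series, lists of transcript structure events with the FPKM of the transcript each belongs to. The submitters' processing notes name GRCm38, StringTie 1.3.4d, HISAT2 2.0.4, cutadapt 1.9 and edgeR, without roles or an edgeR version. The series table was used. Its event rows hold a value only where both forms are listed in that library. Of the skip row values whose transcript had FPKM in that library, 28.8% were 0. Each transcript's own FPKM was therefore used instead, which differs from the event rows and was decided from the layout. Inclusion (percent) was tested with limma 3.58.1 in R 4.3.3 (empirical Bayes with trend, 1 model over 12 libraries, two-sided, Benjamini-Hochberg over all 3390 tested exons): at least 1 FPKM for both forms in at least 3 libraries of each group, and a mean inclusion of 5 to 95%. Summed levels were tested likewise on log2(FPKM + 1), a scale that understates low values. The test was tried on simulated data and missed most of the shifts put in, so an uncalled exon may still differ between groups. FPKM depth is unknown and no count model was run. Named exons are those called, the members of smallest p filled up to 5 per direction and comparison, the 10 of highest level, and up to 3 per gene list; those named after their values were seen are said to be so, and 1 exon that the rule names is not reported here. The members and lists were chosen with earlier results of these data known. Alternatives changed the filters, scale, scaling, spread model, covariates and libraries.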

Additional observations from a re-analysis of the deposited data

Results flagged for a closer look

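Among the named exons, 166 groups of 4 measured libraries with some spread were checked for a library that stands apart from the other 3 by more of the group's range than Dixon's 95% critical value, and 27 had one; chance alone flags about 1 in 20 groups, and exons at 0 or 100% in 3 libraries are flagged by any value in the fourth. Of the wide gaps, Hsph1 was included at 100% in FGF1 1, against 5.56 to 18.9% in the other FGF1 libraries. Ccnl2 was at 0% in DSS 3, against 96.5 to 98.5% in the other DSS libraries. Fn1 was at 93.3% in control 2, against 7.41 to 14.6% in the other controls. Cnot7 was at 100% in control 4, against 43.5 to 48.3%. Spred2 was at 34.4% in control 2, against 94.6 to 95.1%, and Fgfr2 at 36.6% in control 3, against 62.2 to 67.2%. The Fgf1 exon was at 44.1% in DSS 3 and at 0% in the other DSS libraries, and Dmbt1 at 31.7% in DSS 3, against 0.421 to 3.49%.

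In the FGF1 group the narrower gaps were Pgm3 at 74.2% in FGF1 2, Ip6k2 at 81.0% and Tnc at 94.0% in FGF1 3, Grb2 at 88.3% in FGF1 1, and the Bbx exons of 90 and 81 bases at 13.4% and 86.6% in FGF1 4. In DSS they were Pgm3 at 86.1% in DSS 3, those 2 Bbx exons at 4.81% and 95.2%, Ube2v2 at 14.5% and Lrrfip1 at 28.1% in DSS 2, Anxa7 at 7.90% and Ercc8 at 0.845% in DSS 1, and Atp5h at 9.76% in DSS 4. In control they were Rhbdd2 at 34.7% and Postn at 6.01% in control 4, Hnrnpk at 44.3% and Epn2 at 0.0835% in control 3, and Grb2 at 90.4% in control 1. The flags of the 2 Bbx exons mirror each other and are not separate.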

How the results depend on the processing

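The count of called members was 1 in DSS over control and 0 in the other 2 comparisons of inclusion. In DSS over control it was 3 with a minimum of 0.5 FPKM and in a fit of the 2 groups alone, and 0 with a log ratio at either pseudocount, with a smooth muscle term, with the replicate block, with the event rows as deposited, and with the spread of each exon alone; the last 2, and a spread trend by FPKM, were chosen after seeing the data. With DSS 3 and DSS 4 left out the count was again 1, but the exon was Ccnl2 and not Srp19, and the same held without DSS 3 alone. In FGF1 over DSS it was 1 with a minimum of 0.5 FPKM, with the log ratio at a pseudocount of 0.1 and with DSS 3 and DSS 4 left out; in FGF1 over control it was 1 with a minimum of 0.5 FPKM, with the 2 groups alone and with control 3 and FGF1 3 left out. Leaving out 1 library gave 0 to 2 calls of inclusion in each of the 3 comparisons. The event rows as deposited give no inclusion of 0 or 100%, since both forms must be listed, and left 965 members to test. For the summed level, DSS over control gave 14 with median-of-ratios scaling, 2 with the replicate block and 1 to 37 with 1 library left out; FGF1 over DSS gave 0 with a pseudocount of 0.1, 2 with median-of-ratios scaling, 0 with the replicate block and 0 to 3 with 1 library left out; FGF1 over control gave 0 to 1. The cause of these shifts was not tested. Over 71 inclusion differences of single named exons, each in the comparisons its values are given for, 1778 values kept their direction and side of the threshold, 16 passed it, 10, all of Srp19, lost it and 17 reversed, none of them called. These were differences of DSS minus control, in points: Dmbt1 -1.88 with DSS 3 and DSS 4 left out and -1.31 without DSS 3 (-1.31 to 9.13 with 1 library left out); Rps19 0.282 without control 1 and 0.629 without DSS 1 (-2.76 to 0.629); Cdhr5 -1.18, -0.401, -2.36 and -0.931 without control 2, control 4, DSS 2 or DSS 4 (-2.36 to 2.58); Hnrnpab 0.112 with DSS 3 and DSS 4 left out; Akr1c13 -2.26 with a smooth muscle term, -0.825 with control 3 and FGF1 3 left out, -0.857 with DSS 3 and DSS 4 left out and -0.825, -0.224 and -0.448 without control 3, control 4 or DSS 3 (-0.825 to 1.5); Hnrnpdl -3.45 with a smooth muscle term; and Spred2 -2.55 without control 2 (-2.55 to 17.7). The replicate numbers did not pair the libraries: the correlation of same-numbered libraries' deviations from their group means ran from -0.060 to 0.061, and 4 of 12 libraries correlated best with their own number. The replicate block (Srp19 38.9 points, adjusted p = 0.103) is therefore given here alone. Exons with no variation between the libraries could not be fitted.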
